A study of Mus musculus with 27 samples.

Results

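Pancreatic islets of NOD mice with an intact Rag1 gene were compared with islets of NOD.Rag1-/- mice (Rag1ko here) at 8 weeks of age. The comparison was chosen by the sample labels: 6 arrays titled as NOD and 6 titled as Rag1ko islets at that age, 12 of the 27 arrays of the series, with every gene measured by a probe set of a single symbol. All mice were untreated females of 1 background strain, NOD/ShiLt, which becomes diabetic through autoimmunity, and each array holds total islet RNA of 1 mouse. The same genotypes at 6 weeks, 3 mice each, served as a second look at the contrast in other animals. Mice lacking Batf3 (Batf3ko, 6 at 8 weeks and 3 at 6 weeks) enter no contrast. They enter the estimate of the spread, the choice of probe set per gene and other steps that use all 27 arrays.

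Islets of Langerhans are the endocrine clusters of the pancreas, in which beta cells make insulin and other cells make glucagon, somatostatin and pancreatic polypeptide. In NOD mice lymphocytes and myeloid cells gather around and then inside the islets, a process named insulitis. Rag1 encodes part of the recombinase that assembles antigen receptor genes, and without it no mature T or B lymphocytes form, so Rag1ko islets keep the NOD background and its innate immune cells but no adaptive response. Interferon-gamma, made by T cells and NK cells, raises chemokines, antigen presentation genes and a family of large GTPases in the cells that sense it.

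The values are log2 signals of whole-transcript arrays for 19938 genes, so that a difference of 1 is a doubling of the signal, and they have no true zero. In the islet samples the hormone genes lay near the top of the scale, whose highest value is 13.85: Ins2 ran from 12.46 to 12.61 in NOD and from 12.44 to 12.66 in Rag1ko, and Gcg from 13.00 to 13.14 and from 12.96 to 13.14. A signal that near the top can hide a difference, and the few arrays limit the precision of every value. Rag1 itself measured 3.45, 3.58 and 3.79 (lowest, median and highest) in Rag1ko and 2.52, 2.82 and 3.02 in NOD, but no source used here says whether its probes fall in the altered part of the gene, so they check no genotype (-0.81 ± 0.12, adjusted p = 8.9e-05). Transcripts of the T cell receptor complex and its signalling do check the labels as a set, though some, such as Ptprc, are made by other leukocytes too. The mean of 22 such genes was 3.84 ± 0.05 (SD, n = 6) in Rag1ko and 4.72 ± 0.63 in NOD. The groups did not overlap, but the lowest NOD mouse, at 3.96, lay close to the highest Rag1ko mouse, at 3.89.

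Between the genotypes 812 of 19938 genes (4.07%) passed the test, a limma fit of the 27 arrays at an adjusted p under 0.05 over the whole table. Of these 565 (2.83% of all genes) were higher and 247 (1.24%) lower in NOD. The higher genes covered a wider range: 177 exceeded a log2 difference of 1 and 37 exceeded 2, whereas 11 of the lower genes fell below -1. No NOD mouse overlapped any Rag1ko mouse for 209 of the higher and 89 of the lower genes. Of all genes tested 2.16% were free of overlap, 1.3% with NOD higher and 0.863% with NOD lower. NOD mice differed more among themselves than Rag1ko mice in the genes that rose (median SD 0.49 against 0.21), though not over all genes (0.18 in each), and a fit of the 12 arrays alone, which estimates the spread from these mice, passed 317 genes (1.59%; 240 higher, which is 1.2%, and 77 lower, which is 0.386%). Leaving out NOD mouse 5 left 481 genes (346 higher, 135 lower), and leaving out mouse 6 left 473 (341 and 132). With each array centred on its median the count was 968, of which 53.8% were higher in place of 69.6%, with the median of all genes at -0.07 in place of -0.03. Counts from the 12-array fit are therefore given beside those of each gene list with calls below, and the lists with no call had none in that fit either.

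**Figure D1:**
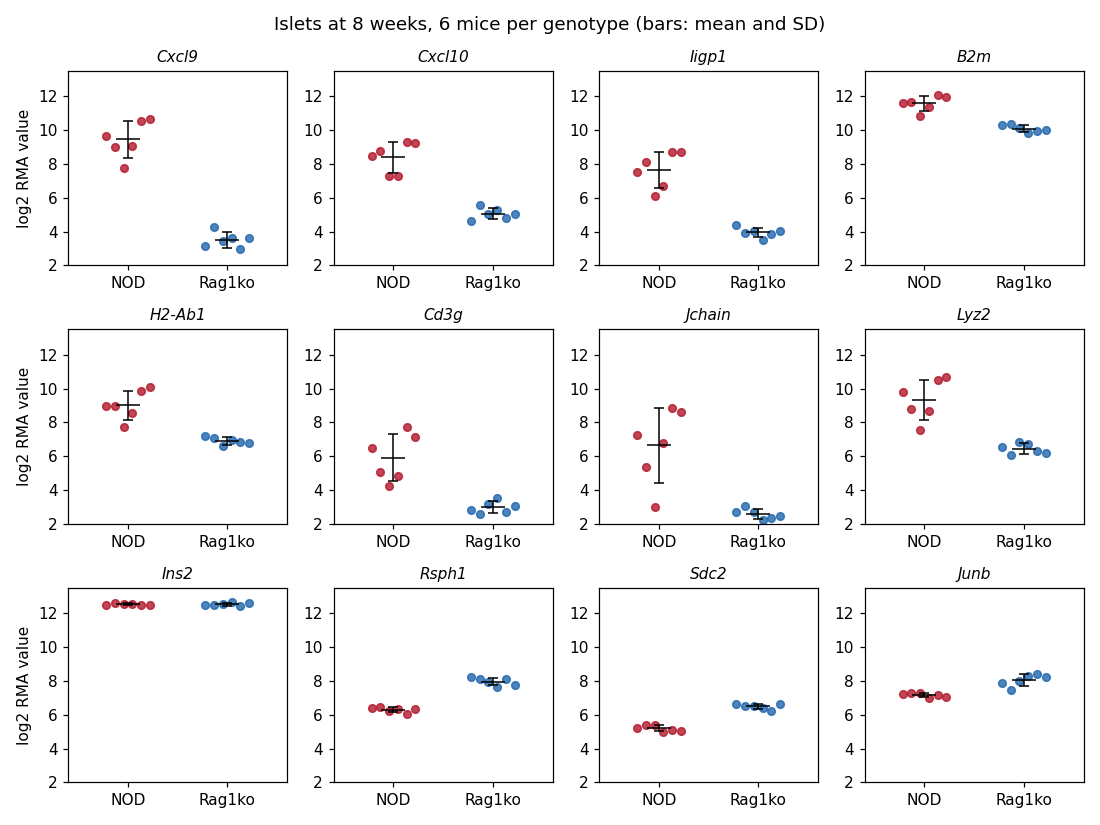
Log2 signal of 12 genes in single mice at 8 weeks (points), NOD in red and Rag1ko in blue, with mean and SD of the 6 mice as bars, on 1 vertical scale. The 2 genotypes are fully apart for Cxcl9, Cxcl10, Iigp1, B2m, H2-Ab1, Cd3g, Lyz2, Rsph1, Sdc2 and Junb, they touch for Jchain, where 1 NOD mouse lies at 2.97, and Ins2 lies at the same level in both.

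Cxcl9, induced by interferon-gamma and a ligand of CXCR3 on activated T cells, measured 7.77, 9.35 and 10.67 (lowest, median, highest) in NOD and 2.94, 3.53 and 4.25 in Rag1ko. The least NOD mouse thus lay above the highest Rag1ko mouse by more than either group's SD, and the difference of 5.95 ± 0.34 (SE; adjusted p = 6.2e-12) was the greatest log2 difference measured. The Rag1ko values lie below 5.1, the median of all values in the table, and whether they exceed background is not known here. Cxcl10, a second CXCR3 ligand, measured 7.26, 8.59 and 9.32 in NOD and 4.61, 5.06 and 5.56 in Rag1ko, a difference of 3.32 ± 0.28 (adjusted p = 1.5e-08). The remaining CXCR3 ligand, Cxcl11, lay at 3.16 to 3.89 in NOD and 3.20 to 3.59 in Rag1ko and did not pass (0.08 ± 0.11, adjusted p = 0.72).

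Of 25 chemokine ligand genes measured, 10 rose and none fell (median 0.65, against -0.03 over all genes; 7 in the 12-array fit). Ccl19, which guides CCR7-bearing T cells and dendritic cells in lymphoid tissue, measured 6.07, 8.88 and 10.24 in NOD and 5.68, 5.94 and 6.30 in Rag1ko, so that 1 NOD mouse, mouse 3, lay within the Rag1ko range while the others reached well above it (2.84 ± 0.42, adjusted p = 9.5e-05). Cxcl13, the B cell attractant of follicles, ran from 4.60 to 8.50 in NOD and from 3.66 to 4.13 in Rag1ko (2.45 ± 0.44, adjusted p = 0.0010), and here mice 5 and 6 (8.39 and 8.50) stood apart from the others, the next of which was at 5.86. The T cell products Ccl5 (2.83 ± 0.40) and Xcl1 (1.85 ± 0.27) did not overlap between genotypes. Cxcl16, the ligand of CXCR6, rose by 1.12 ± 0.18 (adjusted p = 0.00022). The monocyte attractants Ccl8 (2.68 ± 0.51) and Ccl12 (1.04 ± 0.21) passed in the fit of all arrays only (adjusted p = 0.0019 and 0.0043), and Ccl2 missed it (0.65 ± 0.19, adjusted p = 0.057) but passed without dim genes and without NOD mouse 3, NOD mouse 4 or Rag1ko mouse 5. Neutrophil attractants gave no call, with Cxcl1 at 0.32 ± 0.12 (adjusted p = 0.13), Cxcl2 at 0.69 ± 0.25 (adjusted p = 0.13) and Cxcl5 at -0.15 ± 0.10 (adjusted p = 0.45).

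Among 20 chemokine receptors 4 rose (3 in the 12-array fit; median 0.23). They were Cxcr3 (0.94 ± 0.22, adjusted p = 0.014), whose call ended in the 12-array fit and without NOD mouse 6, Cxcr6 of effector T cells (0.93 ± 0.17), the monocyte receptor Ccr2 (0.84 ± 0.14, adjusted p = 0.0006) and Cx3cr1 of resident and patrolling phagocytes (0.78 ± 0.15, adjusted p = 0.0016). Cxcr6 measured 4.96 to 5.85 in NOD and 4.01 to 4.87 in Rag1ko and did not overlap. Ccr7, the receptor for Ccl19, was at 0.33 ± 0.16 (adjusted p = 0.25), and Cxcr5, that for Cxcl13, at 0.57 ± 0.20 (adjusted p = 0.12).

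All measured GTPases induced by interferon rose. Of 19 listed 10 were measured, and Gbp2, Gbp6, Gbp10, Irgm2, Igtp, Tgtp1, Tgtp2, Gvin1 and Ifi47 were not. The 10 measured members passed, in the 12-array fit too, and none overlapped between genotypes (median 2.05). Iigp1, an immunity-related GTPase of vacuole membranes, measured 6.09, 7.81 and 8.71 in NOD against 3.53, 3.98 and 4.37 in Rag1ko, and Gbp4 6.04, 7.56 and 8.96 against 3.66, 4.35 and 4.59. The other guanylate-binding proteins ranged from Gbp8 (2.19 ± 0.26, adjusted p = 7.6e-06) to Gbp2b (1.06 ± 0.17, adjusted p = 0.00022), with Gbp11 at 2.09, Gbp3 at 2.10, Gbp5 at 2.02, Gbp7 at 1.56 and Gbp9 at 1.47. Irgm1, a regulator of the same family, rose by 1.87 ± 0.23.

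Promoters of several of these genes are shown because the members moved together and because the textbook binding elements for the STAT and IRF factors can be read in them. Being picked for such matches, they do not show how common a match is. The sequences are RefSeq's GRCm38.p6 windows of 250 bases before the transcript start, 5′ to 3′ in the direction of the gene; capitals mark matches to GAS (TTCNNNGAA), ISRE (GAAANNGAAA) or the kappaB motif on either strand, where a match on the opposite strand shows as its reverse complement.
Cxcl10, chr5:92348890-92349139, minus strand: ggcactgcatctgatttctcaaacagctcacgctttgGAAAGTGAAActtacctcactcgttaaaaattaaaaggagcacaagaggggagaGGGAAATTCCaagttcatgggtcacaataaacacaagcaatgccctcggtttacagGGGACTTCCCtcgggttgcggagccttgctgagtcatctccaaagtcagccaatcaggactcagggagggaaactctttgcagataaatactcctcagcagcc
Gbp5, chr3:142496684-142496933, plus strand: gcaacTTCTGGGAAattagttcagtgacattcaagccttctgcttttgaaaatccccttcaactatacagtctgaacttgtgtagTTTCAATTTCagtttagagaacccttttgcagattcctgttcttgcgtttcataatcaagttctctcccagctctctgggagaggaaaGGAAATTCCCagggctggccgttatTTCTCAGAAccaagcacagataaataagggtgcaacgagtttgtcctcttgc
Gbp7, chr3:142530086-142530335, plus strand: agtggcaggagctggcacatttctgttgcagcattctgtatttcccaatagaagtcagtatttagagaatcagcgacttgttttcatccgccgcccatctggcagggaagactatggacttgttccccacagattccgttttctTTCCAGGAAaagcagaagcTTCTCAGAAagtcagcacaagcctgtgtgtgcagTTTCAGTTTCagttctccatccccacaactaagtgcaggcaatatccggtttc
Irgm1, chr11:48871421-48871670, minus strand: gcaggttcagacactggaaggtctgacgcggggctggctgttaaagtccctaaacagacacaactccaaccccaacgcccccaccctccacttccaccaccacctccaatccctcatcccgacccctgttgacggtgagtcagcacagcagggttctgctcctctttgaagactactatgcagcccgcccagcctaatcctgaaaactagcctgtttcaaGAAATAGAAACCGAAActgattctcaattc
B2m, chr2:122147437-122147686, plus strand: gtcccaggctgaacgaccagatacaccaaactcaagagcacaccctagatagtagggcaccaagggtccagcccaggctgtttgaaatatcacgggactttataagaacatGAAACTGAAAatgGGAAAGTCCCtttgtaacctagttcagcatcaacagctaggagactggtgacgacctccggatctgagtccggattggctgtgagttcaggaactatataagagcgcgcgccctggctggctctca

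In the Cxcl10 window the ISRE letters lie 213 to 204 bases before the start and are followed by 2 kappaB matches. Gbp5 and Gbp7 hold 2 GAS matches and 1 ISRE each, Gbp5 with a kappaB match besides, and Irgm1 holds 2 ISRE matches that overlap near the start. B2m has an ISRE and a kappaB match separated by a few bases. Windows were available for 5 of the 10 GTPase genes (Gbp2b, Gbp3, Gbp5, Gbp7 and Irgm1), and each of them held an ISRE, against 3.40% of 15614 genes tested with a window and 2.98% of all 32851 promoters. An ISRE was in 50% of 14 type I interferon response genes with a window and in 11.8% of 17 chemokine ligand genes. The share was 7.69% of 13 class I presentation genes, 11.1% of 9 class II genes and 10% of 20 acinar genes. A GAS match was in 2 of the 5 GTPase windows, 28.6% of the type I response genes and 15.4% of the class I genes. It was in 0% of the class II genes, 5.88% of the chemokine ligand genes and 10% of the acinar genes. It was also in 27.8% of 18 genes of a glucocorticoid and clock list, against 7.71% of genes tested. Among the genes higher in NOD, 9.7% of 433 with a window held an ISRE and 11.3% a GAS match (7.71% of genes tested), and among the lower genes 1.53% and 6.63% of 196. The kappaB motif was in 7.62% of the higher and 5.05% of all genes tested, CRE (TGACGTCA) in 2.08% and 2.33%, and the CArG motif in 0.693% and 1.45%. The Cxcl9 window held none of these 5 motifs. These shares describe letters in short windows and were not tested.

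Of 21 interferon receptors, kinases, STATs, IRFs and inhibitors, 6 rose and 1 fell (2 and 0 in the 12-array fit; median 0.29). The transcription factors Stat2 (0.53 ± 0.12, adjusted p = 0.0097) and Stat3 (0.43 ± 0.08, adjusted p = 0.0025) passed in both fits. Irf8 of myeloid and B cells rose by 0.83 ± 0.19, Ciita, the master activator of MHC class II genes, by 0.75 ± 0.17, Irf1, a transcription factor induced by interferon, by 0.50 ± 0.12 and the type I receptor chain Ifnar2 by 0.37 ± 0.10, and all 4 calls ended in the 12-array fit, that of Ifnar2 also when all arrays were quantile normalized and without any 1 of NOD mice 5 and 6 or Rag1ko mice 3 to 6. The receptor chains for interferon-gamma, Ifngr1 (0.24 ± 0.13) and Ifngr2 (0.35 ± 0.14), and the kinases Jak1 (-0.02 ± 0.06) and Jak2 (0.29 ± 0.11) did not pass. Socs1, which shuts off JAK signalling and is itself induced by interferon-gamma, was flat at 0.09 ± 0.10 (adjusted p = 0.69). Socs3, an inhibitor of IL-6 family signalling, fell by 0.63 on the log2 scale (adjusted p = 0.018), from 6.87 to 7.67 in Rag1ko to 6.55 to 6.76 in NOD, a call that ended in the 12-array fit, with the mean of its probe sets and without either of Rag1ko mice 4 and 5. Of 22 genes of the type I interferon response 8 rose (3 in the 12-array fit and 5 without either of NOD mice 5 and 6; median 0.49), led by the nucleic acid sensor Zbp1 (1.69 ± 0.27, adjusted p = 0.00022). Bst2, which tethers viral particles, rose by 1.05 ± 0.22, and Oasl2 by 0.97 ± 0.17. Usp18, the feedback inhibitor of this pathway, was at -0.02 ± 0.13 (adjusted p = 0.97).

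**Figure D2:**
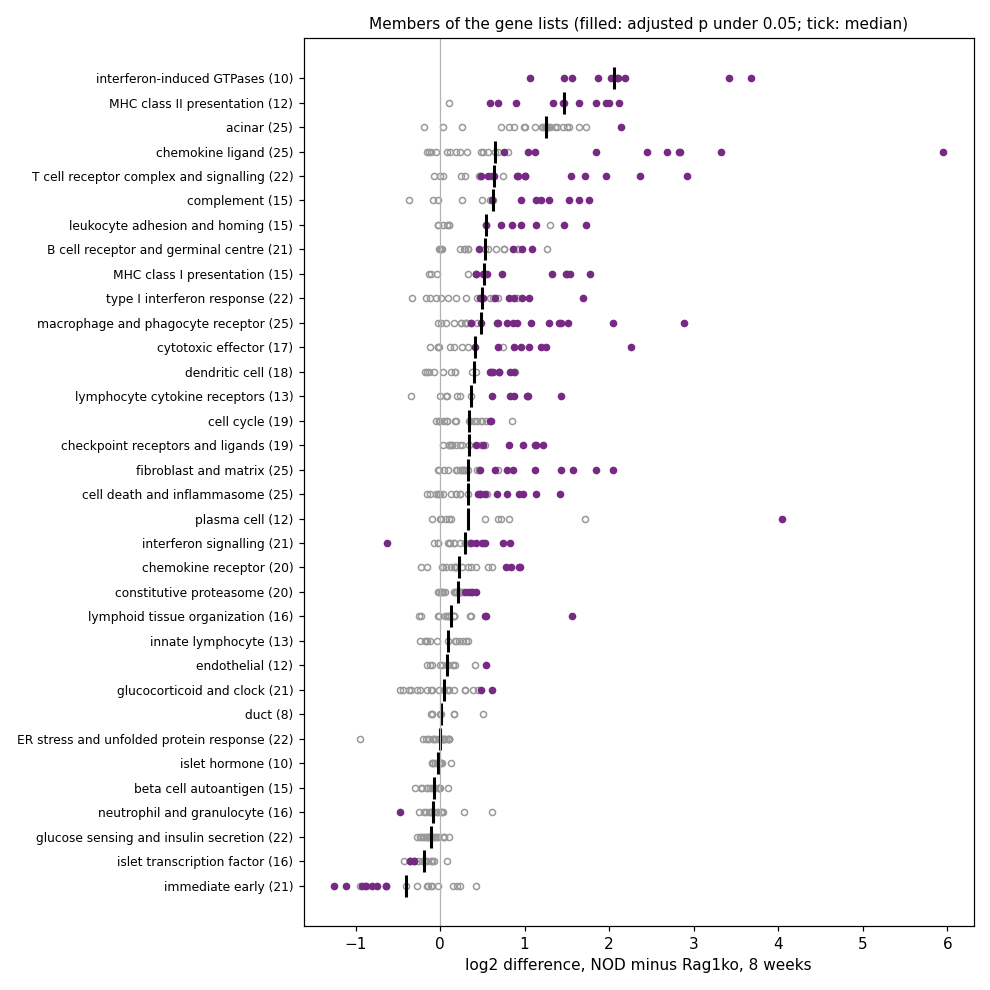
Log2 differences, NOD minus Rag1ko at 8 weeks, of the measured members of 34 gene lists (number in brackets), filled where the adjusted p was under 0.05, with the median of each list as a tick. Lists are ordered by median, from immediate early genes at -0.40 to the interferon-induced GTPases at 2.05.

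Antigen presentation genes rose for both MHC classes. Of the class I heavy chains listed H2-M3 was measured, whereas H2-K1, H2-D1, H2-Q7 and H2-T23 were not. Of 15 class I presentation genes 11 passed (9 in the 12-array fit; median 0.52), and of 12 class II genes 11 (8; median 1.46). The invariant light chain B2m, already among the most abundant transcripts, measured 10.82, 11.63 and 12.09 in NOD and 9.83, 10.04 and 10.34 in Rag1ko, with no overlap (1.5 ± 0.16, adjusted p = 1.8e-06). The subunits that replace the catalytic ones in the immunoproteasome rose by similar amounts: Psmb9 by 1.77 ± 0.21, Psmb8 by 1.54 ± 0.20 and Psmb10 by 1.32 ± 0.16. The peptide transporter Tap1 rose by 1.49 ± 0.22 (adjusted p = 9.3e-05), the loading factor Tapbp by 0.56 ± 0.10 and the proteasome activator Psme1 by 0.73 ± 0.11. Of 20 constitutive proteasome genes, by comparison, 5 rose (4 in the 12-array fit, and 3 without NOD mouse 5, Rag1ko mouse 1 or Rag1ko mouse 6; median 0.21), led by Psmb3 (0.42 ± 0.08).

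For class II, the beta chain H2-Ab1 measured 7.73, 8.96 and 10.08 in NOD and 6.63, 6.87 and 7.20 in Rag1ko (2.12 ± 0.25, adjusted p = 7.0e-06). The invariant chain Cd74 (2.0 ± 0.23), H2-Aa (1.96 ± 0.21) and H2-Eb1 (1.84 ± 0.23) did not overlap between genotypes either. The proteases that trim the invariant chain, Ctsh (1.64 ± 0.26) and Ctss (1.45 ± 0.21), passed as well. In islets class II is a feature of antigen-presenting leukocytes more than of endocrine cells, and in these bulk samples more cells of a type and more RNA per cell cannot be told apart.

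Transcripts of T lymphocytes separated the genotypes, with wide differences between NOD mice. Cd3g, a chain of the T cell receptor complex, measured 4.25, 5.78 and 7.72 in NOD and 2.61, 2.94 and 3.54 in Rag1ko (2.92 ± 0.38, adjusted p = 1.6e-05). Mice 5 and 6 were highest among NOD mice and mouse 3 lowest. Of 22 genes of the receptor complex and its signalling 13 rose (5 in the 12-array fit; median 0.63), among them Cd3d (1.96 ± 0.35), Cd3e (1.71 ± 0.25) and the leukocyte phosphatase Ptprc (2.37 ± 0.35). The co-receptor Cd8a of cytotoxic T cells rose by 1.0 ± 0.22 (adjusted p = 0.0083), a call the 12-array fit did not make. Of 13 lymphocyte cytokine receptors 6 rose (1 in the 12-array fit; median 0.37). The one was Il2rb, the shared chain for IL-2 and IL-15 (1.43 ± 0.26, adjusted p = 0.0010). The survival receptor Il7r rose by 1.03 ± 0.20 in the fit of all arrays only.

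Cytotoxic genes rose in 8 of 17 (6 in the 12-array fit and 5 without NOD mouse 6; median 0.41). Nkg7, a granule protein of killer lymphocytes, ran from 3.68 to 7.94 in NOD and from 2.81 to 3.90 in Rag1ko (2.26 ± 0.39, adjusted p = 0.00069). Srgn, the granule proteoglycan, rose by 1.25 ± 0.19, and the killer lectin receptors Klrd1 and Klrk1 by 1.19 ± 0.21 and 0.87 ± 0.13. Ifng itself measured 3.84, 4.26 and 5.09 in NOD and 3.28, 3.55 and 3.94 in Rag1ko (0.69 ± 0.18, adjusted p = 0.022), all below 5.1, and its call ended in the 12-array fit (as it did without NOD mouse 5 or 6 and without Rag1ko mouse 6). Innate lymphocyte genes gave no call in either direction among 13 measured (median 0.09). Their mean level was 3.35 to 3.55 in NOD and 3.31 to 3.47 in Rag1ko, below 5.1, so the lack of calls says little about such cells. Klrd1 and Klrk1 were counted on the cytotoxic list only. The NK receptor Ncr1 was at 0.19 ± 0.11 (adjusted p = 0.40), Klrb1c at -0.04 ± 0.12 and Eomes at 0.33 ± 0.18 (adjusted p = 0.34), and cytokines of innate lymphoid and helper cells lay as near zero, with Il13 at -0.24 ± 0.11, Il5 at -0.12 ± 0.11 and Il17a at -0.17 ± 0.12.

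Checkpoint receptors and their ligands rose in 7 of 19 (4 in the 12-array fit; median 0.34). Cd274, the PD-L1 ligand, measured 6.66, 6.95 and 8.01 in NOD and 5.85, 6.09 and 6.21 in Rag1ko, without overlap (1.12 ± 0.19, adjusted p = 0.00067). Its receptor Pdcd1 was at the edge of the test (0.51 ± 0.15, adjusted p = 0.0465), a call that the 12-array fit and most left-out mice ended. The co-stimulatory ligand Cd86 rose by 1.22 ± 0.19 and Havcr2, an exhaustion receptor also found on myeloid cells, by 0.82 ± 0.15. Tigit (1.13 ± 0.22) and Ctla4 (0.98 ± 0.20) rose in the fit of all arrays only.

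B lineage genes were higher in some NOD mice and not in others. Of 21 B cell genes 4 rose (1 in the 12-array fit, Cd72 at 1.09 ± 0.18; median 0.53). Leaving out NOD mouse 3 gave 9, leaving out mouse 4 gave 7, and 2 were left without any 1 of NOD mice 5 and 6 or Rag1ko mice 2 to 4. Ms4a1, the CD20 antigen, measured 2.88, 3.59 and 6.06 in NOD and 2.98, 3.09 and 3.55 in Rag1ko and did not pass (0.91 ± 0.34, adjusted p = 0.14) except without NOD mouse 4. Cd79b of the B cell receptor, from 3.64 to 7.29 in NOD, did not pass either (1.26 ± 0.41, adjusted p = 0.079), though it did without any 1 of NOD mice 2 to 4. Of 12 plasma cell genes 1 passed, in both fits: Jchain, which links secreted antibody, at 2.97, 7.0 and 8.87 in NOD and 2.26, 2.58 and 3.07 in Rag1ko (4.05 ± 0.58, adjusted p = 8.1e-05; median of the list 0.33). Mouse 3, at 2.97, was the only NOD mouse inside the Rag1ko range, and 6 plasma cell genes passed without it, 3 without mouse 4 and 2 without NOD mouse 1, NOD mouse 2 or Rag1ko mouse 2.

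Of 25 macrophage and phagocyte genes 14 passed (7 in the 12-array fit; median 0.48). Lyz2, the lysozyme of macrophages, measured 7.56, 9.28 and 10.66 in NOD and 6.06, 6.43 and 6.82 in Rag1ko (2.88 ± 0.40, adjusted p = 4.1e-05). Aif1 rose by 2.05 ± 0.23 (adjusted p = 3.3e-06), the signalling adaptor Tyrobp by 1.51 ± 0.24, the oxidase subunit Cybb by 1.43 ± 0.25 and the growth factor receptor Csf1r by 0.91 ± 0.15. Of 18 dendritic cell genes 7 rose (1 in the 12-array fit, 3 without NOD mouse 6 and 4 without NOD mouse 5 or Rag1ko mouse 6; median 0.40). Flt3, the growth factor receptor of the lineage, was the one (0.88 ± 0.17, adjusted p = 0.0023). Clec9a, of cross-presenting dendritic cells, was at 0.59 ± 0.14 and passed in the fit of all arrays only, and Xcr1, of the same cells, was at -0.16 ± 0.16 (adjusted p = 0.66). Of 16 genes of neutrophils and other granulocytes, none was higher and 1, the granule protein Ngp, was lower (-0.47 ± 0.10, adjusted p = 0.0036, in both fits). The median of the list was -0.08. Its mean level was low, at 3.14 to 3.36 in NOD and 3.16 to 3.37 in Rag1ko, which limits what the lack of calls shows.

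Complement genes rose in 8 of 15 (3 in the 12-array fit; median 0.63). The inhibitor of the first component, Serping1, measured 8.86, 9.55 and 10.43 in NOD and 7.82, 7.95 and 8.62 in Rag1ko (1.64 ± 0.20, adjusted p = 1.0e-05). The recognition chain C1qc rose by 1.53 ± 0.22 and the protease C1s1 by 1.76 ± 0.33. Adhesion and homing genes rose in 7 of 15 (3 in the 12-array fit and 4 without either of NOD mice 5 and 6; median 0.54): the endothelial adhesion molecule Vcam1 by 1.73 ± 0.29, the integrin chain Itgb2 by 1.47 ± 0.24 and Icam1 by 0.85 ± 0.17. Of 16 lymphoid tissue organization genes 3 rose (2; median 0.14), led by Ltb, the lymphotoxin chain on lymphocytes (1.56 ± 0.28). Of 25 cell death and inflammasome genes 9 rose (3 in the 12-array fit; median 0.33), with 3 left without NOD mouse 5, 4 without NOD mouse 6 and 5 without Rag1ko mouse 4 or 5. Casp1, the protease that matures IL-1 beta, rose by 1.42 ± 0.26, Il1b itself by 1.14 ± 0.18 (adjusted p = 0.00019) and the DNA sensor Aim2 by 0.98 ± 0.16. Cell cycle genes rose in 2 of 19 (1; median 0.34), Ccnd1 by 0.59 ± 0.12 and Mcm6 by 0.60 ± 0.14 (a call the 12-array fit ended), while the proliferation marker Mki67 did not pass (0.54 ± 0.29, adjusted p = 0.33).

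Endocrine genes differed little. None of 10 islet hormone and endocrine marker genes passed (median -0.03), and their differences ran from -0.09 to 0.13: the hormone of alpha cells, Gcg, was at 0.01 ± 0.06, that of delta cells, Sst, at 0.02 ± 0.06, and that of PP cells, Ppy, at -0.04 ± 0.23. Ins2 gave 0.00 ± 0.06 (adjusted p = 0.98). Of 15 beta cell autoantigen genes 1 had a difference above 0, against 8279 of 19938 genes tested. None of the 15 passed (median -0.07, range -0.30 to 0.09). These include the islet-specific phosphatase G6pc2 (-0.06 ± 0.08), chromogranin Chga (-0.07 ± 0.07), the amyloid peptide Iapp (-0.01 ± 0.06), the zinc transporter Slc30a8 (-0.21 ± 0.11, adjusted p = 0.29) and the tyrosine phosphatase-like Ptprn (-0.09 ± 0.09). None of 22 genes of glucose sensing and insulin secretion passed (median -0.10), and 4 of the 22 differences were above 0. For 2 of the genes the mice of the genotypes were free of overlap with NOD lower, against 0.863% of all genes tested. Slc2a2, the glucose transporter of mouse beta cells, measured 10.13 to 10.43 in NOD and 10.48 to 10.65 in Rag1ko, fully apart, at -0.22 ± 0.10 (adjusted p = 0.22), and it passed when all arrays were quantile normalized (-0.35, adjusted p = 0.035).

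Islet transcription factors were the endocrine group with calls. Of 16, 4 were lower and none higher (median -0.18). In the 12-array fit, and without either of NOD mice 5 and 6, 1 of them was left, and without any 1 of Rag1ko mice 2 to 5 there were 2. Glis3, a regulator of insulin transcription, measured 8.17 to 8.41 in NOD and 8.49 to 8.75 in Rag1ko, without overlap (-0.35 ± 0.08, adjusted p = 0.011, in both fits). Nkx6-1, which maintains beta cell identity, was at -0.35 ± 0.09 (adjusted p = 0.019), Foxa2 at -0.31 ± 0.09 (adjusted p = 0.040) and Pax6 at -0.31 ± 0.09 (adjusted p = 0.0469), and these 3 calls ended in the 12-array fit and without either of NOD mice 5 and 6. The call of Foxa2 also ended without any 1 of NOD mouse 3 and Rag1ko mice 2 to 4, that of Nkx6-1 without Rag1ko mouse 5 and that of Pax6 with array weights and without any single mouse but NOD mouse 3. ER stress genes gave no call among 22 (median 0.00), and Atf3, the greatest difference among them, stood at -0.95 ± 0.34 (adjusted p = 0.12) and passed without Rag1ko mouse 2.

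**Figure D3:**
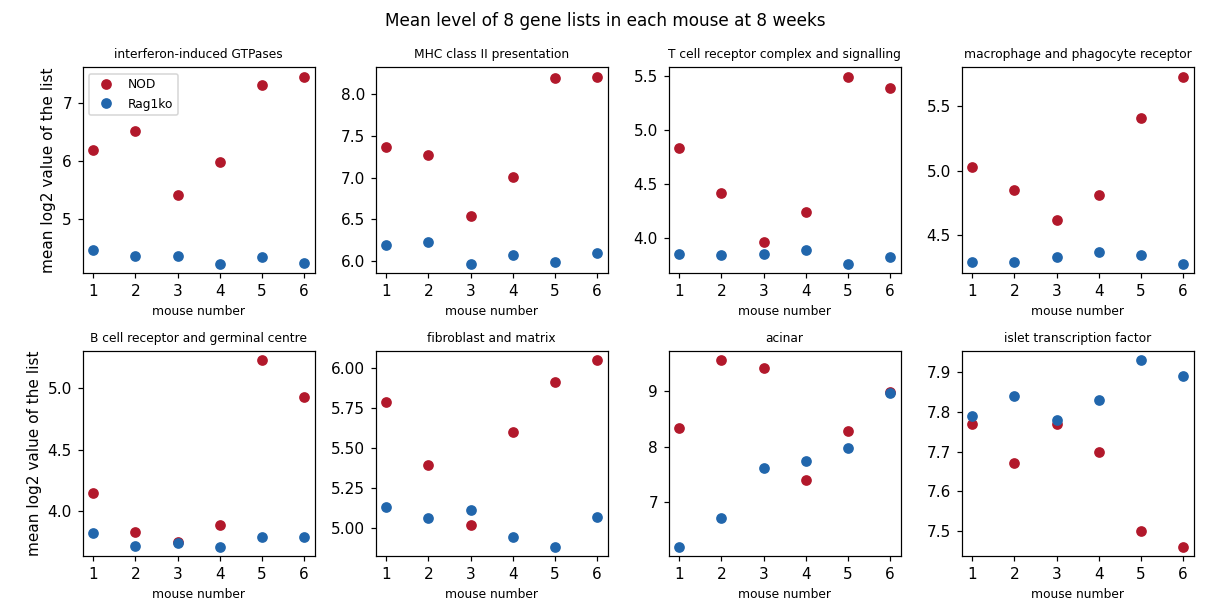
Mean log2 level of 8 gene lists in each mouse at 8 weeks, NOD in red and Rag1ko in blue, against the mouse number of the labels, which has no order and pairs no mice. NOD mice 5 and 6 are highest and mouse 3 lowest in the GTPase, class II, T cell and macrophage lists, whereas in the acinar list mouse 2 is highest and mouse 4 lowest.

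NOD mice 5 and 6 were highest and mouse 3 lowest on the GTPase, class II, T cell and macrophage lists. The T cell list had its mean at 3.96 in mouse 3, 4.24 in mouse 4, 4.41 in mouse 2, 4.83 in mouse 1, 5.39 in mouse 6 and 5.49 in mouse 5. The GTPase list ran from 5.41 in mouse 3 to 7.46 in mouse 6, and the class II list from 6.54 in mouse 3 to 8.21 in mouse 6. Rag1ko mice kept within 4.23 to 4.47 and 5.97 to 6.23 on those lists, so that NOD mouse 3 still lay above all of them. On the B cell list mouse 3 (3.75) lay inside the Rag1ko range of 3.71 to 3.82. The islet transcription factor list ran the other way, lowest in mice 6 and 5 (7.46 and 7.5) and 7.67 to 7.77 in the rest, against 7.78 to 7.93 in Rag1ko. The insulin secretion list was also lowest in mice 5 and 6 (8.86 and 8.87), with 8.98 to 9.07 in the rest and 9.04 to 9.10 in Rag1ko. So was the autoantigen list (9.59 and 9.55), with 9.63 to 9.69 in the rest and 9.66 to 9.77 in Rag1ko. On the hormone list mouse 6, at 10.69, was not among the lowest.

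Markers of other pancreatic cell types were measured in the same islet samples. Of 25 acinar genes, which mark the enzyme-secreting exocrine pancreas, 1 was higher, the zymogen granule protein Sycn (2.14 ± 0.57, adjusted p = 0.030; 0 in the 12-array fit, without any 1 of NOD mice 2, 3, 5 and 6 or Rag1ko mice 1 and 2, and 2 without NOD mouse 4 or Rag1ko mouse 6; the call also ended with array weights and a trended prior), yet their median was 1.25 and 24 of 25 differences were above 0. Over all genes 8279 of 19938 differences were above 0. The mean acinar level was 7.40, 8.66 and 9.57 in NOD and 6.18, 7.67 and 8.97 in Rag1ko, so the groups overlapped, and its order among NOD mice (mouse 2 highest, mouse 4 lowest) was not that of the immune lists. The defining enzymes were not near the floor in any mouse: Cpa1 ran from 8.92 to 11.35 in NOD and from 6.52 to 10.48 in Rag1ko. Of 25 fibroblast and matrix genes 9 were higher (5 in the 12-array fit; median 0.33), with the mean level at 5.02 to 6.05 in NOD and 4.88 to 5.13 in Rag1ko. Lum, a matrix proteoglycan, rose by 1.84 ± 0.37 (adjusted p = 0.0028), Postn by 1.43 ± 0.30 and the filament protein Vim, also made by leukocytes, by 1.57 ± 0.27. Duct genes gave no call among 8 (median 0.01), and of 12 endothelial genes 1 was higher, Eng (0.54 ± 0.11, adjusted p = 0.0042; median 0.09; 1 in the 12-array fit and 2 without NOD mouse 2). The part of acinar and stromal RNA in the other differences was not tested.

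Genes that fell were fewer and less far apart, and some varied little among the mice of a genotype. Rsph1, a protein of ciliary spokes, measured 6.07, 6.34 and 6.45 in NOD and 7.64, 8.01 and 8.20 in Rag1ko (-1.66 ± 0.11, adjusted p = 4.1e-10). Sdc2, a cell surface heparan sulfate proteoglycan, measured 5.0, 5.15 and 5.42 in NOD and 6.22, 6.51 and 6.65 in Rag1ko (-1.30 ± 0.11, adjusted p = 1.5e-08). Slc37a1, a sugar phosphate transporter, measured 7.98, 8.40 and 8.51 in NOD and 9.24, 9.44 and 9.53 in Rag1ko (-1.08 ± 0.11, adjusted p = 6.5e-07). In all 3 the gap between groups exceeded the range within either, and NOD mouse 3 did not stand apart from the other NOD mice. The lowest values also included Dennd4a (-1.37 ± 0.25), the oxidoreductase Nqo1 (-0.98 ± 0.18, adjusted p = 0.0014), Rhobtb1 (-0.68 ± 0.13) and Anks4b (-0.73 ± 0.11, adjusted p = 8.1e-05).

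Rsph1 and Slc37a1 are neighbours on chromosome 17 in the GRCm38.p6 gene order. Of the 10 measured genes on either side of Rsph1 no other passed, with Wdr4 at -0.29 ± 0.11 (adjusted p = 0.13, passing only without Rag1ko mouse 4), Abcg1 at 0.03 ± 0.08 and Pde9a at 0.00 ± 0.12. Among the 10 measured genes on either side of Rag1 on chromosome 2, the only one to pass was Cd44, a homing receptor of activated lymphocytes, which measured 6.55 to 7.19 in NOD and 5.44 to 5.90 in Rag1ko (1.21 ± 0.10, adjusted p = 1.5e-08). Rag2, the partner of Rag1, was at -0.16 ± 0.11 (adjusted p = 0.44).

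Some probe sets of microRNA loci were lower in NOD. They lie outside the rule by which genes were named, and were chosen after their values were seen. Of 300 loci measured 14 were lower (4.67%, against 1.24% of all genes) and none higher, with 243 of 300 differences below 0 and a median of -0.13. Over all genes 8279 of 19938 differences were above 0 and the median was -0.03. The mice of the genotypes were free of overlap for 4 of the 300 loci with NOD lower, and 0.863% of all genes tested lay lower in NOD without overlap. The count of lower loci was 5 in the 12-array fit, 7 without NOD mouse 6 and 9 without NOD mouse 5. At 6 weeks none was lower and 7 were higher (median 0.12). A whole-transcript array reads the precursor or host transcript at such a locus, not the mature microRNA. The greatest fall of all genes was at Mir7b, and since the miR-7 family is highly abundant in islet endocrine cells its mature products are shown, with those of the 2 let-7 loci that fell, as RefSeq (GRCm38.p6) gives them, the seed (bases 2 to 8) in capitals.
miR-7a-5p: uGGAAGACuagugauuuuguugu
miR-7b-5p: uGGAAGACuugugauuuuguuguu
let-7a-5p: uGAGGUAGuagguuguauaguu
let-7g-5p: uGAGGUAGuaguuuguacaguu

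The products of Mir7b (miR-7b-5p) and of Mir7-1 and Mir7-2 (miR-7a-5p, identical from both loci) share the seed GGAAGAC, and the let-7 pair shares GAGGUAG. Mir7b measured 4.34, 5.75 and 7.29 in NOD and 8.17, 8.79 and 9.04 in Rag1ko (-3.07 ± 0.28, adjusted p = 7.5e-08), with no overlap. Its order among NOD mice was the reverse of the immune lists at both ends: mouse 3 was highest and mice 6 (4.34) and 5 (5.03) lowest. Mir7-2 measured 4.67, 5.39 and 6.26 in NOD and 5.91, 7.08 and 7.92 in Rag1ko (-1.5 ± 0.29, adjusted p = 0.0024), and Mir7-1 3.84, 4.13 and 4.49 against 4.41, 4.79 and 5.77 (-0.72 ± 0.21, adjusted p = 0.0511), just outside the threshold, which it passed with arrays centred on the median and without NOD mouse 2 or Rag1ko mouse 2. Mirlet7g did not overlap between genotypes (-0.63 ± 0.12, adjusted p = 0.0012), and Mirlet7a-1 was at -0.52 ± 0.12 (adjusted p = 0.0097), a call the 12-array fit ended. Mir375, the best known islet microRNA locus, was at -0.52 ± 0.12 (adjusted p = 0.014), and its call ended in the 12-array fit.

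**Figure D4:**
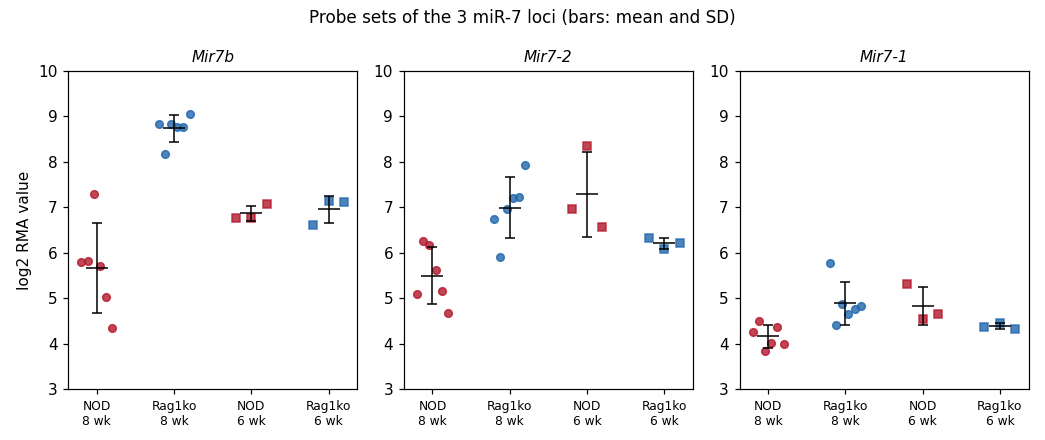
Log2 signal of the probe sets at the 3 miR-7 loci in single mice of both genotypes and ages (circles 8 weeks, squares 6 weeks), with mean and SD as bars. At 8 weeks Mir7b is lower in all 6 NOD mice than in any Rag1ko mouse, and at 6 weeks the means are 6.86 and 6.95.

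At 6 weeks, with 3 mice per genotype, 772 genes (3.87%) passed for the same contrast, 287 (1.44%) higher and 485 (2.43%) lower in NOD. Without NOD mouse 2 of that age the count was 377, and without Rag1ko mouse 2 or 3 it was 500 or 477. The arrays of that age have a higher median (5.31 to 5.34, against 4.92 to 5.05 at 8 weeks), so levels are compared only within an age. Higher at both ages were 30 genes (5.31% of those higher at 8 weeks, 10.5% of those at 6 weeks), and lower at both were 11 (4.45% and 2.27%). Opposite ways went 10 genes that were higher and 20 that were lower at 8 weeks. The difference of the differences between ages passed for 726 genes (3.64%), greater at 8 weeks for 422 (2.12%) and smaller for 304 (1.52%), and for 393 in all without NOD mouse 2 of the 6-week group.

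Of the 565 genes higher at 8 weeks 363 (64.2%) had a difference above 0 at 6 weeks, and of the 247 lower genes 110 (44.5%) had one below 0. Cxcl9 was at 4.23 (adjusted p = 2.2e-06), Cxcl10 at 2.80 and Iigp1 at 3.05, and for none of the 3 did the ages differ by the test (adjusted p = 0.10, 0.59 and 0.55). Of the 10 GTPases 6 were higher at 6 weeks too. The T cell receptor list had no member higher at 6 weeks (median 0.24), and neither did the macrophage list (0.07); Cd3g was at 0.82 at that age, and its ages did not differ by the test (adjusted p = 0.071). Ccl19 (0.21 at 6 weeks, interaction adjusted p = 0.039), Lyz2 (0.32, adjusted p = 0.033) and Cd52 (0.83, adjusted p = 0.033) did differ between ages. The tight falls of Rsph1 (-1.41), Sdc2 (-1.44) and Slc37a1 (-1.10) were present at 6 weeks, each with an adjusted p of 9.5e-05 or less, and did not differ between ages by the test (adjusted p = 0.53, 0.72 and 0.98).

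**Figure D5:**
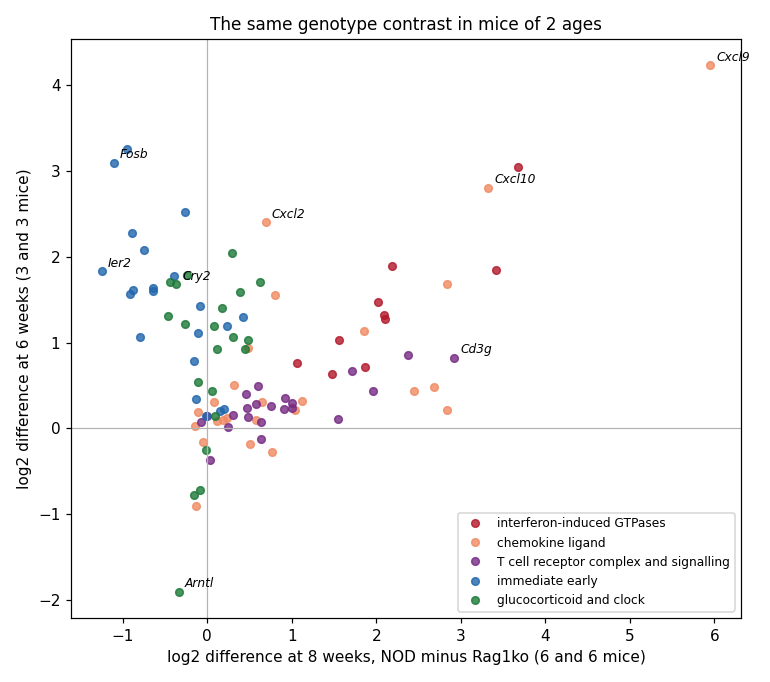
Log2 difference, NOD minus Rag1ko, at 8 weeks (horizontal, 6 and 6 mice) and at 6 weeks (vertical, 3 and 3 mice) for the members of 5 gene lists. Cxcl9 lies at 5.95 and 4.23 in the upper right quadrant, and immediate early genes lie mostly in the upper left, lower in NOD at 8 weeks and higher at 6 weeks.

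Immediate early genes, the transcription factors and phosphatases switched on within minutes of a stimulus, went opposite ways at the 2 ages. At 8 weeks 8 of 21 were lower in NOD and none higher (3 in the 12-array fit and 4 without any 1 of NOD mice 5 and 6 or Rag1ko mice 4 and 5; median -0.40), and at 6 weeks 17 of 21 were higher and none lower (median 1.56). Junb measured 6.98, 7.20 and 7.28 in NOD and 7.46, 8.11 and 8.40 in Rag1ko at 8 weeks, without overlap (-0.88 ± 0.17, adjusted p = 0.0019), against 1.61 at 6 weeks, and the ages differed (adjusted p = 7.8e-06). Ier2 was at -1.25 ± 0.23 and 1.83 (adjusted p of the difference between ages 2.5e-05), and Fosb at -1.11 ± 0.28 and 3.09 (7.8e-06), the 8-week call of Fosb ending in the 12-array fit and without any 1 of those 4 mice. The glucocorticoid and clock list had 2 higher genes of 21 at 8 weeks (0 in the 12-array fit, 1 without NOD mouse 2 or 5 or Rag1ko mouse 2 or 3; median 0.05), Dbp at 0.62 ± 0.15 and Hlf at 0.48 ± 0.13 (the call of Hlf also ended with quantile normalization of all arrays and without NOD mouse 4 or Rag1ko mouse 4), but 14 higher and 3 lower at 6 weeks. Cry2, a clock repressor, stood at -0.37 ± 0.15 and 1.68 (adjusted p of the difference 1.9e-05). No source used here gives the hour at which islets were taken. The promoter windows of 18 immediate early genes held the CArG motif in 2 (11.1%) and CRE in 2 (11.1%), against 1.45% and 2.33% of all genes tested. The kappaB motif was in 4 (22.2%), against 5.05%. These shares rest on few genes and were not tested.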

How the data were processed

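Islet RNA of 27 mice was hybridised to Affymetrix Mouse Gene 1.0 ST arrays, 1 mouse per array. The deposited values are log2 signals that the authors made by RMA in Arraystar, as the series text says. The submitters' processing notes also name Affymetrix Expression Console and mm9 but not what they were used for. The arrays of each age follow a distribution of their own.

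Of 30177 probe sets, 21789 name 1 symbol, and the one with the highest mean was kept per gene (19938 genes; 999 had several). Symbols were matched to RefSeq GRCm38.p6 for names and gene order. limma 3.58.1 in R 4.3.3 fitted 6 group means (21 residual and 5.524 prior degrees of freedom), with Benjamini-Hochberg adjustment over all genes. It was tested on simulated data. The alternatives were the 12 arrays alone (for the other contrasts, their own groups), no dim genes, a replicate block, quantile normalization of all arrays, median centring, the mean of probe sets, array weights, a trended robust prior and each mouse left out in turn.

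Named by rule were Rag1, Rag2, Batf3 and Ins2, the 15 highest and 15 lowest genes without overlap, up to 8 members with the greatest differences of each of 34 lists (6 lists in full), neighbours of Rag1 and Rsph1, and 5 and 5 genes for the difference between ages. Ins1 was in the rule too but was not measured by a probe set of a single symbol. Predicted genes, microRNAs and receptor segments were left out of the rule. Members and lists were chosen with earlier results of these data known. Motifs, printed promoters and microRNA loci, and Gbp2b and Gbp9, were chosen after values were seen. Replicate numbers pair no mice: same-numbered mice correlated by -0.05 to 0.02.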

Additional observations from a re-analysis of the deposited data

Results flagged for a closer look

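For 24 genes named above the difference between NOD and Rag1ko islets was not the same at 8 and at 6 weeks by the test of the difference between ages in the limma fit; the values are log2 differences at 8 weeks minus those at 6 weeks. It was negative, so that NOD was lower relative to Rag1ko at 8 weeks than at 6, for the immediate early and stress genes Fosb (-4.20), Atf3 (-4.20), Ier2 (-3.08) and Junb (-2.49), the clock genes Cry2 (-2.05) and Dbp (-1.08), the chemokine Cxcl2 (-1.70), the inhibitor Socs3 (-1.58) and the transcription factor Pax6 (-0.58). The microRNA loci Mir7b (-2.99), Mir7-2 (-2.57) and Mirlet7g (-0.73) also lay on that side. Leukocyte genes lay on the other side, with Ccl19 at 2.63, Lyz2 at 2.57, Cd52 at 2.29, Klrk1 at 0.81 and Cd44 at 0.65. So did the matrix and stromal genes Lum (2.73), Postn (1.82), Vim (1.77) and Eng (1.06), the proteasome genes Psmb10 (1.10) and Psmb3 (1.01), and the interferon-induced Bst2 (1.69).

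In 10 of 320 sets of 6 mice (160 genes in either genotype, with Reg3a and Reg3b, described last) 1 mouse stood away from the nearest other by a share of the group's range above Dixon's 95% critical value, which chance passes in about 1 of 20 sets. The gap as a share of the range was 0.790 for Havcr2 in NOD mice. In Rag1ko mice it was 0.795 for Stat2, 0.703 for Reg3b, 0.678 for Mir7b, 0.669 for Mir7-1, 0.655 for Irgm1, 0.653 for Lum, 0.644 for Cxcr3, 0.638 for Cd3d and 0.633 for Nkg7.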

How the results depend on the processing

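The count of 812 genes at 8 weeks (565 higher, 247 lower) became 317 (240 and 77) with only the 12 arrays compared and 203 (164 and 39) with a replicate block; leaving out 1 mouse at a time gave 473 to 1022 (341 to 733 higher, 132 to 289 lower), and median centring gave 447 lower genes. The 6-week count of 772 became 1965 with array weights, 197 with its 6 arrays alone, 59 with a replicate block and 377 to 761 with 1 mouse left out. The count of 726 genes that differed between ages became 1318 with array weights, 261 with a replicate block and 393 to 803 with 1 mouse left out. Of all members of the 34 lists 180 genes passed, 95 with the 12 arrays, 69 with a replicate block and 129 to 217 with 1 mouse left out. Fewer arrays or degrees of freedom enter the 12-array, block and left-out fits, and the 12-array fit takes the spread from those mice alone. The causes of the shifts in count were not tested. Of the 116 genes named above that passed, 72 passed in all alternatives run, the 12-array fit ended 25 calls and the replicate block 42, and none changed sign while passing. No same-numbered pair correlated best with its own number. A change of sign was counted only where the gene passed in either fit. Of the 34 lists, 17 had a count more than 1.5 times off with the 12 arrays, 25 with the block and 10 without dim genes, where fewer members were tested. The hormone genes lie near the top of the signal scale, and the number of mice limits the precision.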

Other observations

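Reg3b, a regenerating islet-derived protein of the pancreas and gut, had the greatest difference below 0 after Mir7b but did not pass in the limma fit of all arrays. It was chosen after its values were seen. It measured 3.56, 4.66 and 5.55 (lowest, median, highest) in NOD and 5.86, 6.33 and 8.86 in Rag1ko, without overlap (-2.09 ± 0.62, adjusted p = 0.0548). In the 12-array fit it passed (adjusted p = 0.035), and over 20 alternatives its adjusted p ran from 0.026 to 0.13, with 5 of them below the threshold. At 6 weeks it was at -1.61 ± 0.88 (adjusted p = 0.41). Its relative Reg3a was at -1.76 ± 0.64 (adjusted p = 0.13), and its groups overlapped.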
